A study of Caenorhabditis elegans with 17 samples.

Results

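The fbxa genes, the F-box A family of Caenorhabditis elegans, were followed as templates of antisense small RNA in 17 libraries. A member was a protein-coding gene with a locus name of fbxa- and a number. The deposited tables print that name on only 3 rows, which are non-coding isoforms, so the gene IDs of the tables were looked up in Ensembl release 115. This gave 170 members among 20535 protein-coding genes. The reads of a member were summed over its protein-coding transcripts.

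F-box proteins are the substrate adaptors of SCF ubiquitin ligases, in which a cullin scaffold (CUL-1), a RING protein (RBX-1) and a Skp1-related protein (an SKR protein in this worm) hold the F-box protein and its bound target. Nematodes have large, recently expanded F-box families, and the fbxa genes pair an F-box with a FTH domain whose targets are mostly unknown, so no individual role is given for most members below. Antisense reads on a protein-coding gene are largely endogenous siRNAs that RNA-dependent RNA polymerases copy from the mRNA, and Argonaute proteins carry them to the matching transcripts.

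The study asked how loss of the nuclear RNA exosome changes antisense small RNA on ribosomal RNA, and sequenced 1 library per condition at 20°C. Total small RNA of L3 larvae came from N2 (wild type), dis-3(ust56) and exos-1(ust57), and from animals that all carry eri-1(mg366): eri-1 alone, eri-1;dis-3(ust56), eri-1;exos-1(ust57), eri-1;exos-10(ok2269), and a quadruple mutant that adds rrf-1(pk1417) and rrf-2(ok210) to eri-1;dis-3(ust56). DIS-3 and EXOS-10 are exosome nucleases, EXOS-1 is part of its core, ERI-1 is an exonuclease needed for a class of endogenous siRNAs, and RRF-1 and RRF-2 are RNA-dependent RNA polymerases. Small RNA bound to NRDE-3, a nuclear Argonaute, was taken with anti-FLAG beads from L3 animals that carry eri-1(mg366) and 3xFLAG::GFP::NRDE-3, as control and with dis-3, exos-1 or exos-10, or as the quadruple mutant. Total small RNA of young adults with eri-1(mg366) came from worms fed dsRNA against fib-1, against nol-56 or against mtr-4, or fed the empty vector L4440. FIB-1 and NOL-56 are nucleolar proteins of rRNA modification, and MTR-4 is a helicase that works with the exosome.

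Levels are antisense reads per 1000000 antisense reads on protein-coding genes, called the antisense share and written ppm. The libraries held 44615 (dis-3 NRDE-3 IP) to 2600675 (mtr-4 RNAi) such reads, so 3 reads, the limit that a count of 0 allows, stood for 1.15 to 67.2 ppm. With 1 library per condition, tests and intervals compare libraries and not conditions and cover counting error only. Sense reads of the vitellogenin genes vit-1 to vit-6, a mark of adult hermaphrodites, were 3.29 to 38.3 ppm of sense protein-coding reads in the 8 total L3 libraries, 16.7 to 2613 in the 5 NRDE-3 IP libraries and 36838 to 72123 in the 4 young adult libraries. Sense reads on nrde-3 were 715 to 849 ppm in the 5 eri-1(mg366) L3 libraries, against 38.6 to 50.2 in the 3 libraries with eri-1 intact, although only the IP labels name the transgene. The eri-1 allele and whatever raises nrde-3 reads therefore cannot be told apart below. Sense reads on exos-1, of which ust57 is a deletion, were 1.70 ppm in exos-1 and 12.9 in N2, from 2 and 10 reads. In the IP library labelled exos-1(ust57) they were 18.3 ppm, against 20.1 in the IP control, so sense reads go against that label, while antisense reads on exos-1 were 11.2 and 60.2 ppm. Reads on exos-10 were not analysed here.

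Antisense reads fell on most of the family but were concentrated on few genes. An antisense read was found on 167 of the 170 members in at least 1 library, and 82 reached 20 reads in some library. The other 88 stayed below 20 reads in each of the 17 libraries. In the 8 total L3 libraries the 10 members with the most reads in a library held 55.8% to 78.6% of its fbxa antisense reads, with a median of 68.9%. Of the members, 71 are on chromosome V and 60 on chromosome III, with 14 each on II and X, 6 on I and 5 on IV. In 15 runs of neighbours no more than 50000 bases apart stood 108 of the members. The run of 27 members on chromosome III (WBcel235, 1239048 to 1384252) had 10 with at least 20 antisense reads, against 8 of the 10 in the run at 933422 to 963833 on the same chromosome.

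Summed over the family, the antisense share was 25007 ppm in dis-3, 13387 in exos-1 and 20413 in N2, where it is 2.04% of all antisense protein-coding reads. Among the eri-1(mg366) L3 libraries the sum was 12044 in eri-1;dis-3, 5357 in eri-1;exos-1, 5785 in eri-1;exos-10, 14356 in the quadruple mutant and 15090 in eri-1 (95% Wilson interval 14601 to 15594). It was lowest in the NRDE-3 IP libraries, at 1944 to 4485 ppm, and stood at 7445 to 10366 in the young adult libraries. The sums of the 15 pairs of libraries compared below all differed by more than counting error (exact conditional binomial test, two-sided, largest Benjamini-Hochberg adjusted p = 2.01e-10).

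**Figure D1:**
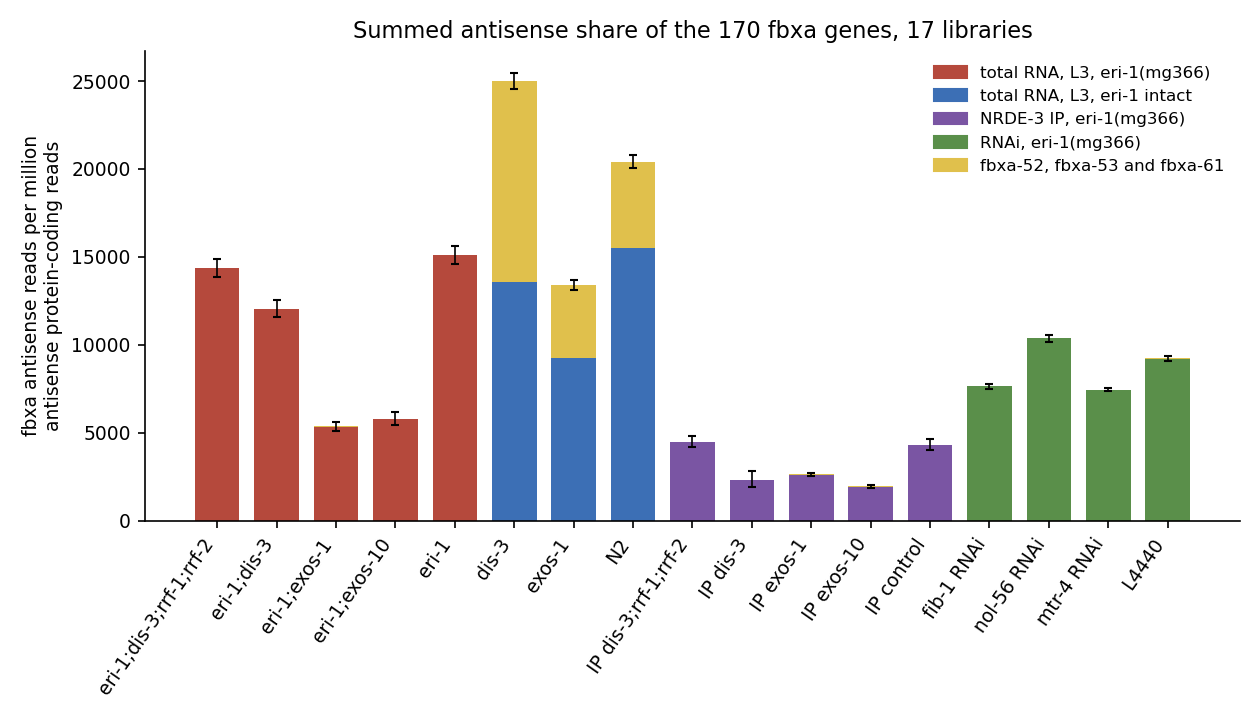
Summed antisense share of the 170 fbxa genes in each library (bars, ppm of antisense protein-coding reads, axis from 0), with 95% Wilson intervals for counting error and the portion on fbxa-52, fbxa-53 and fbxa-61 in yellow. That portion is 24.1% to 45.7% of the sum in the 3 libraries with eri-1 intact and at most 1.30% in the other 14.

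Per kilobase of exon, the members with the highest mean antisense share over the 8 total L3 libraries were fbxa-52, fbxa-61 and fbxa-67, at 1285, 899.7 and 773 ppm per kilobase, followed by fbxa-118 at 722 and fbxa-218 at 599. The places of fbxa-52 and fbxa-61 come from the 3 libraries with eri-1 intact, since in the other 5 they had at most 4.32 and 37.2 ppm. fbxa-67 (III, 948493 to 950670, minus strand) was the most even of them. Its antisense share was 1884 ppm in dis-3, 1142 in exos-1 and 1988 in N2. In the eri-1(mg366) L3 libraries it was 1780 in eri-1;dis-3, 916 in eri-1;exos-1, 879 in eri-1;exos-10, 1807 in the quadruple mutant and 1736 in eri-1. It was thus lower in the 3 libraries with exos-1 or exos-10 alleles and close to its control in those with dis-3. fbxa-67 overlaps a pseudogene on the same strand, and reads of near-identical copies cannot be assigned with certainty in this family.

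fbxa-218 (III, 12436515 to 12441058, plus strand) led the young adult libraries. Its antisense share there was 1373 ppm in fib-1 RNAi, 1876 in nol-56 RNAi, 1692 in mtr-4 RNAi and 2074 in L4440. In the L3 libraries it was 956 in dis-3, 1143 in exos-1 and 758 in N2, and 1671 in eri-1;dis-3, 67.6 in eri-1;exos-1, 168 in eri-1;exos-10, 1793 in the quadruple mutant and 2362 in eri-1. The lowest L3 values were those of eri-1;exos-1 and eri-1;exos-10, whereas exos-1 without eri-1(mg366) was above N2. A non-coding isoform of fbxa-218, left out by the rule, took a further 25.9% to 34.4% of the gene's antisense reads in the 8 total L3 libraries.

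fbxa-136 (V, 17521035 to 17527479, plus strand) followed the same order in part. Its antisense share was 1785 ppm in dis-3, 1690.0 in exos-1 and 781 in N2, and it was 927 in eri-1;dis-3, 125 in eri-1;exos-1, 143 in eri-1;exos-10, 1820.5 in the quadruple mutant and 1196 in eri-1. fbxa-118 (V, 19776080 to 19777327, minus strand) overlaps fbxa-194 on the same strand. It had 415 in dis-3, 115 in exos-1 and 931 in N2, and 981 in eri-1;dis-3, 304 in eri-1;exos-1, 530 in eri-1;exos-10, 1175 in the quadruple mutant and 1568 in eri-1. Every exosome library was thus below its own control for fbxa-118, unlike for fbxa-136.

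**Figure D2:**
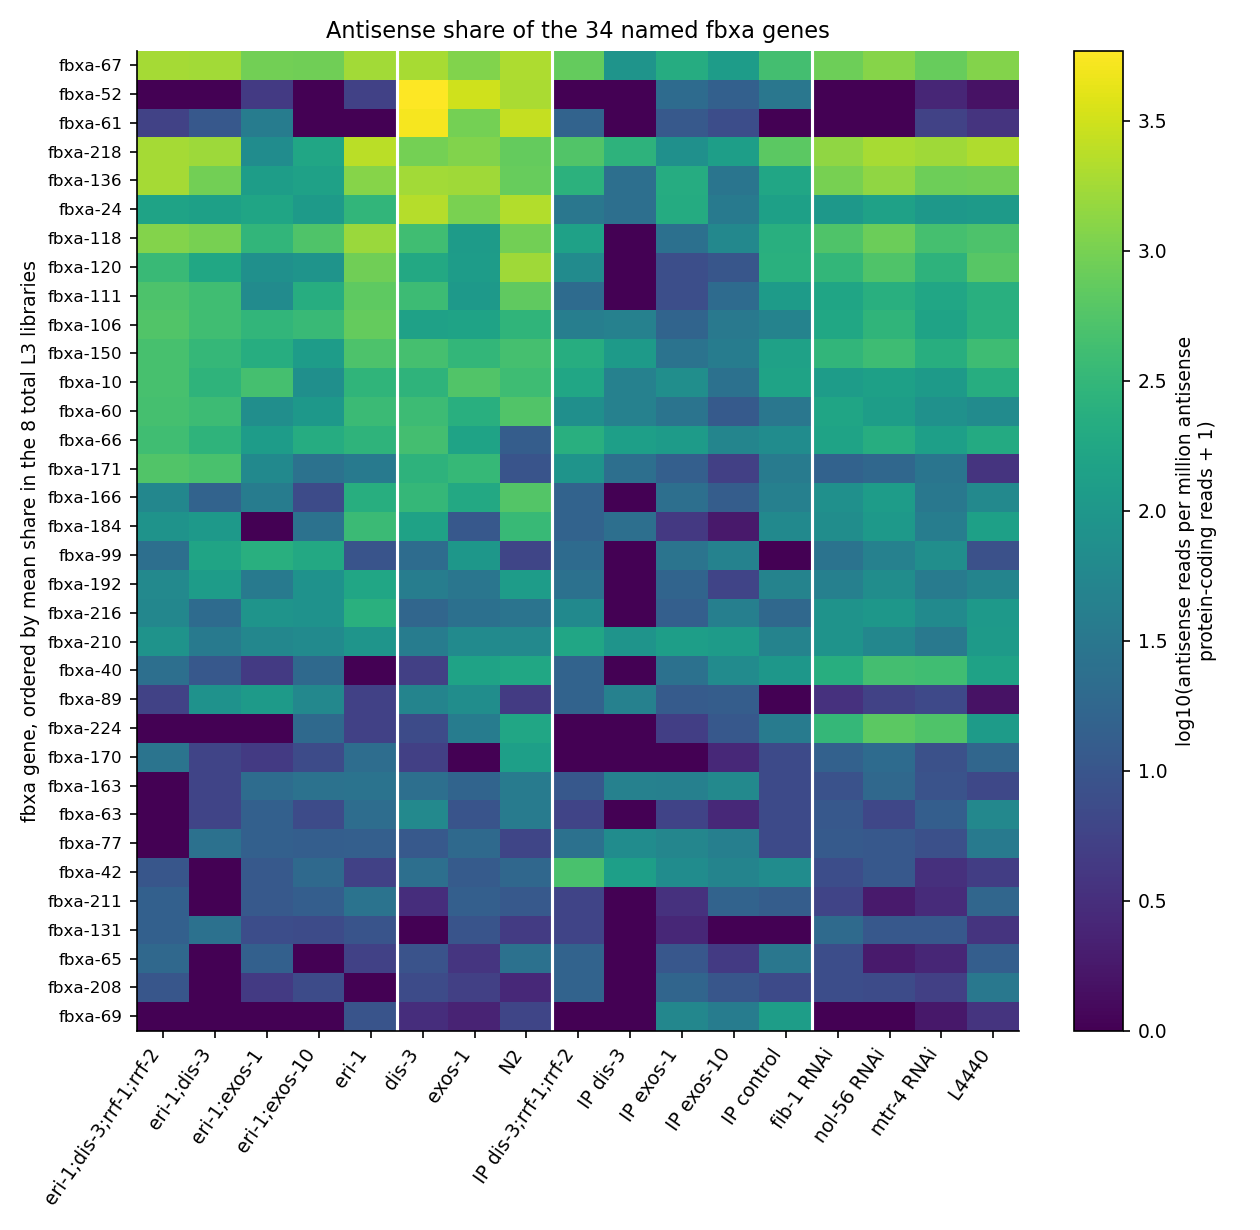
Antisense share of the 34 members named by the rule in each of the 17 libraries (colour, log10 of ppm of antisense protein-coding reads plus 1), with white lines between the eri-1(mg366) L3, eri-1 intact L3, NRDE-3 IP and young adult libraries. fbxa-52 and fbxa-61 are bright only in the 3 libraries with eri-1 intact, and fbxa-67 is bright in all 8 total L3 libraries.

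The eri-1 library was compared with N2 to see which members lose or gain antisense reads with eri-1(mg366). A few members lost nearly all of their antisense reads and 27 of the 47 tested were not called by the rule given below. fbxa-52 (X, 1710149 to 1712638, minus strand) had 1 read in eri-1 (4.32 ppm) against 1138 in N2 (1966 ppm), which is 455-fold lower with a 95% interval of 81.5 to 17993. fbxa-61 (III, 1239048 to 1242799, plus strand) had no read in eri-1 against 1581 in N2 (2731 ppm), at least 211-fold lower with 3 reads in place of 0. fbxa-24 (II, 3816526 to 3818238, plus strand) had 307 ppm in eri-1 and 2154 in N2, 7.02-fold lower (interval 5.53 to 9.05). In the other direction, fbxa-66, which overlaps a piRNA gene on the opposite strand, had 285 ppm in eri-1 and 12.1 in N2, a ratio of 23.6 (10.8 to 60.9), and fbxa-216 had 242 and 27.6, a ratio of 8.75 (4.95 to 16.3).

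A member was called where either library had at least 20 antisense reads, the shares differed at least 2-fold and the 95% interval of their ratio did not hold 1. Members enter through the library in which they are high, so these counts and the medians are descriptions. In eri-1 over N2, 47 members were tested, of which 6 were higher and 14 lower, against 9.87% higher and 22.3% lower of all 4073 protein-coding genes tested. With other denominators the split was 3 and 17 per read on transcripts, 7 and 13 per read of a reduced total (counted reads without those in sense to rRNA or to protein-coding genes), and 2 and 22 per sense miRNA read. The reduced total stands in for the study's normalization number, which starts from genome-mapped reads and was not computed here. Such a denominator moves the log2 ratios of all genes of a comparison alike, by -1.55 to 3.09, by -1.27 to 1.92 and by -2.08 to 5.52 for these 3 over the 15 comparisons, so medians are read against that of all genes. The median log2 ratio of the tested members was -0.20, with a count of 0 put at 3 reads, and that of all genes tested was -0.51. The sum was 0.74 times that of N2 (interval 0.71 to 0.77). Without fbxa-52, fbxa-53 and fbxa-61, chosen after their values were seen, it was 0.97 times (0.94 to 1.01). By antisense share that no longer differed beyond counting error. These members had almost no reads in eri-1, so leaving them out had to raise the ratio. Other denominators move its log2 by -0.42 (per read on transcripts), 0.10 (reduced total) and -0.76 (per sense miRNA read).

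Over all 8 total L3 libraries, 56 members reached 20 reads in some library. For 7 of them the highest of the 5 eri-1(mg366) libraries was below the lowest of the 3 libraries with eri-1 intact, and for 1 the lowest was above the highest, against 2.40% and 3.55% of the 5377 genes tested. A member may reach 20 reads in 1 group alone, and the libraries with eri-1 intact were deeper. They held 484500 to 713609 antisense protein-coding reads, against 160413 to 295883 with eri-1(mg366), so these counts are descriptions. fbxa-52 had at most 4.32 ppm in the 5 eri-1(mg366) libraries, against 5872 in dis-3, 3099.7 in exos-1 and 1966 in N2. fbxa-61 had at most 37.2, against 5259 in dis-3, 963 in exos-1 and 2731 in N2. fbxa-24 had 112 to 307, against 1030.0 to 2219. The remaining 4, named after their values were seen, were fbxa-53 (at most 3.38, against 88.3 to 305), fbxa-55 (at most 17.3, against 39.2 to 165), fbxa-51 (at most 6.23, against 15.4 to 70.2) and fbxa-54 (at most 6.76, against 11.2 to 104). In the 5 eri-1(mg366) libraries 3 reads stand for 10.1 to 18.7 ppm, which reaches above the lowest eri-1 intact values of fbxa-51 and fbxa-54. The gaps of fbxa-51 and fbxa-54 are thus not shown to exceed counting error.

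Of these 7 members, fbxa-53 (X, 1716253 to 1718579) is the next fbxa gene to fbxa-52 on the same strand, and fbxa-55, fbxa-54 and fbxa-51 lie in the 10-member run of chromosome III that also holds fbxa-67, fbxa-60 and fbxa-10. The antisense share of fbxa-67 in that run overlapped between the eri-1 genotypes. The 1 member higher in all eri-1(mg366) libraries was fbxa-106, with 304 to 751 ppm, against 144 to 288. The 9 libraries that the grouping did not use all carry eri-1(mg366), and in them fbxa-52 had 0 to 30.1 ppm, fbxa-61 0 to 14.9 and fbxa-24 22.4 to 204.

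**Figure D3:**
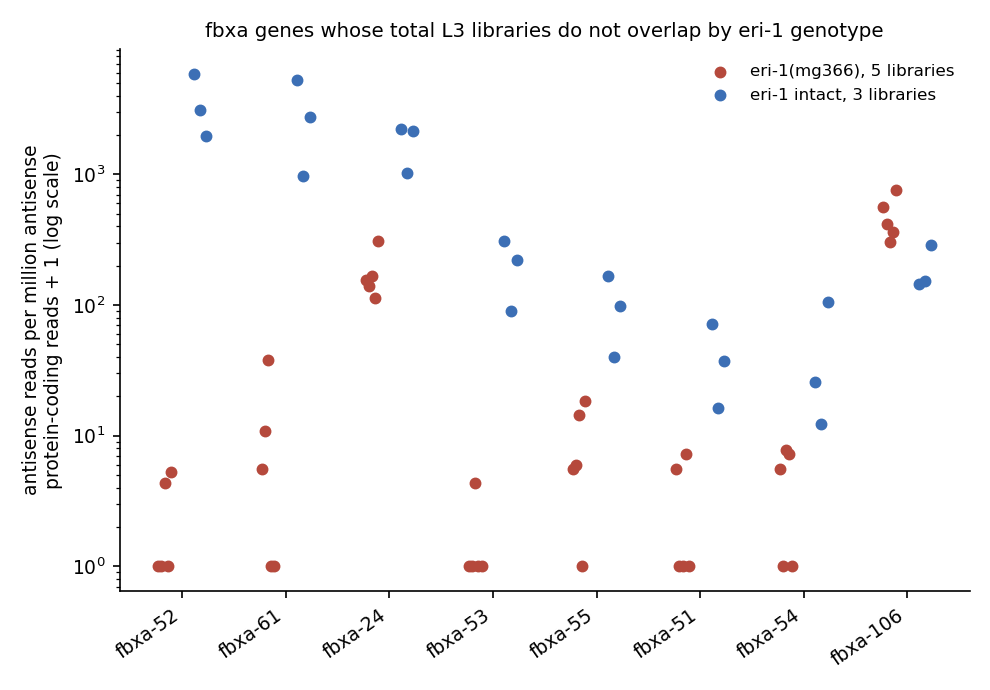
Antisense share (log axis, ppm of antisense protein-coding reads plus 1) of the 8 members whose total L3 libraries do not overlap by eri-1 genotype, with 1 point per library, 5 libraries with eri-1(mg366) in red and 3 with eri-1 intact in blue. The 7 members on the left are lower with eri-1(mg366), and fbxa-106 is higher. For fbxa-51 and fbxa-54 the gap is not shown to exceed counting error.

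The exosome alleles were first compared with N2, with eri-1 intact. In dis-3 the sum was 1.23 times that of N2 (interval 1.19 to 1.26). This direction depended on a few genes and on the denominator: without fbxa-52, fbxa-53 and fbxa-61 it was 0.88 times (0.85 to 0.90) and per sense miRNA read 0.62 times. By the reduced total it stayed above N2 but close to 1, at 1.03 times (1.002 to 1.054). fbxa-52 was 2.99-fold higher (2.79 to 3.20). fbxa-66 had 433 ppm in dis-3 and 12.1 in N2, a ratio of 35.8 (17.1 to 90.3), and fbxa-171 had 277 and 8.64, a ratio of 32.0 (13.4 to 100.2). fbxa-40 fell to 4.13 ppm in dis-3, against 173 in N2, 41.8-fold lower (11.3 to 350.3), and fbxa-170 to 4.13, against 131, 31.8-fold lower (8.51 to 267). Of 52 members tested, 11 were higher and 14 lower, against 13.1% and 26.4% of 4421 genes, and per sense miRNA read 8 were higher and 30 lower. Members had a median log2 ratio of -0.36 and all genes one of -0.54.

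In exos-1 more members were lower. The sum was 0.66 times that of N2 (0.64 to 0.67), and of 51 members tested 7 were higher and 31 lower, against 18.5% and 21.9% of 5084 genes. Members had a median log2 ratio of -1.30 and all genes one of -0.28. fbxa-184 (II, 1710259 to 1711417) fell to 9.81 ppm in exos-1, against 345 in N2, 35.2-fold lower (16.8 to 88.7), and fbxa-170 had no read in exos-1 against 76 in N2, at least 31.2-fold lower. fbxa-120 (X, 17302719 to 17304036) had 119 ppm in exos-1 and 1705 in N2, 14.3-fold lower (11.5 to 18.1). fbxa-171 again rose, to 331 ppm in exos-1 against 8.64 in N2, a ratio of 38.3 (16.2 to 119), and fbxa-89 had 68.7 and 3.45, a ratio of 19.9 (5.22 to 169). The comparisons of dis-3 and of exos-1 share the N2 library, whose 5 reads on fbxa-171 and 7 on fbxa-66 enter both.

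With eri-1(mg366) in both libraries, the alleles of all 3 exosome genes went with fewer fbxa antisense reads. In eri-1;dis-3 the sum was 0.80 times that of eri-1 (0.76 to 0.84), with 4 members higher and 11 lower of 30 tested, against 17.0% and 19.9% of 2043 genes, and per read on transcripts 3 and 18. In eri-1;exos-1 it was 0.36 times (0.33 to 0.38), with 4 higher and 22 lower of 32, against 39.3% and 15.6% of 3271 genes. In eri-1;exos-10 it was 0.38 times (0.36 to 0.41), with 1 higher and 17 lower of 28, against 34.1% and 18.8% of 2223 genes. The median log2 ratio of the members was -0.59, -1.58 and -1.50 in these 3 comparisons, and that of all genes tested was -0.11, 0.72 and 0.46. Where genes overall tended to be higher in eri-1;exos-1 and eri-1;exos-10, most tested members were lower. The 3 comparisons share the eri-1 library.

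fbxa-99 (V, 15981685 to 15982854) rose in all 3, to 158 ppm in eri-1;dis-3, 240.0 in eri-1;exos-1 and 187 in eri-1;exos-10, against 8.64 in eri-1, which is 2 reads. It overlaps oac-20 on the opposite strand, so its antisense reads cannot be told apart from sense reads of that gene. fbxa-171 had 493 ppm in eri-1;dis-3, 60.8 in eri-1;exos-1 and 24.9 in eri-1;exos-10, against 34.5 in eri-1, and only the first of these was called, at a ratio of 14.3 (6.97 to 33.96). fbxa-89 was higher in eri-1;exos-1, with 112 ppm against 4.32 in eri-1, a ratio of 25.8 (4.32 to 1051).

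Among the lower members, fbxa-218 was 34.9-fold lower in eri-1;exos-1 (22.4 to 57.7) and 14.0-fold lower in eri-1;exos-10 (9.54 to 21.5) than in eri-1. fbxa-184 had no read in eri-1;exos-1 and 4 in eri-1;exos-10, against 85 in eri-1, at least 36.2-fold lower in the first and 14.7-fold lower in the second (5.54 to 55.3). fbxa-166 (II, 1616829 to 1619048) fell to 14.8 ppm in eri-1;dis-3 and 6.23 in eri-1;exos-10, against 233 in eri-1. These are 3 reads and 1 read, against 54, or 15.8-fold lower (5.12 to 78.8) and 37.4-fold lower (6.44 to 1505). fbxa-216 fell to 19.7 ppm in eri-1;dis-3, against 242 in eri-1, 12.3-fold lower (4.53 to 46.6). fbxa-120 was lower in each of the 3, by 5.23-fold, 11.6-fold and 10.3-fold in eri-1;dis-3, eri-1;exos-1 and eri-1;exos-10.

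The same allele was set side by side in both backgrounds, which share no library. For exos-1(ust57), 29 members were tested in both, and 15 were lower in both and 2 higher in both (fbxa-89 and fbxa-99), against 12.1% lower and 16.4% higher in both among 3103 genes. In the controls fbxa-89 and fbxa-99 were low, with 1 and 2 reads in eri-1 and 3.45 and 5.18 ppm in N2. fbxa-99 also overlaps oac-20 on the opposite strand. fbxa-136 and fbxa-66 went opposite ways. fbxa-136 was 2.16-fold higher in exos-1 than in N2 (1.94 to 2.42) and 9.57-fold lower in eri-1;exos-1 than in eri-1 (6.77 to 13.9). For dis-3(ust56), 28 members were tested in both, 3 were higher in both (fbxa-171, and by their values fbxa-112 and fbxa-148), 4 were lower in both and none went opposite ways, against 9.41% higher and 12.1% lower in both of 1945 genes. Pearson's r of the log2 ratios across members was 0.70 for exos-1 and 0.64 for dis-3, and across all genes 0.77 and 0.71, as a description over genes that are not independent.

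**Figure D4:**
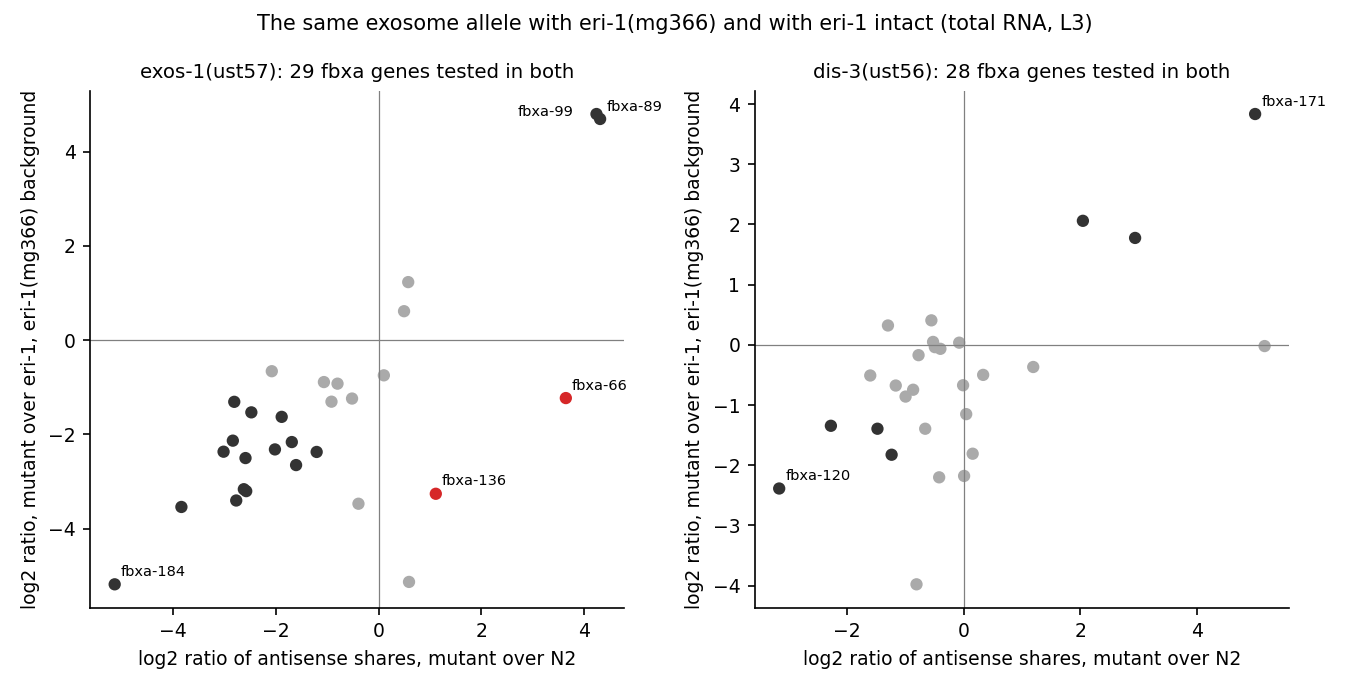
Log2 ratio of antisense shares for exos-1(ust57) (left) and dis-3(ust56) (right), with the ratio over eri-1 on the vertical axis and the ratio over N2 on the horizontal axis, 1 point per member tested in both and a count of 0 put at 3 reads. Black points were called the same way in both, red points opposite ways (fbxa-66 and fbxa-136), and grey points were not called in both.

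Adding the rrf-1 and rrf-2 alleles to eri-1;dis-3 left 22 of the 24 tested members uncalled. The sum in the quadruple mutant was 1.19 times that of eri-1;dis-3 (1.13 to 1.26). Of those members 1 was higher and 1 lower, against 13.5% and 5.73% of 2146 genes. Per read on transcripts the split was 1 and 2, and by the reduced total 2 and 1. The median log2 ratio was 0.27 for the members and 0.33 for all genes. fbxa-120 rose to 352 ppm in the quadruple mutant, against 173 in eri-1;dis-3, a ratio of 2.04 (1.35 to 3.14). fbxa-99 fell to 22.6 ppm, against 158, 6.98-fold lower (2.70 to 23.0). fbxa-218 had 1793 and 1671 ppm, a ratio of 1.07 whose interval (0.93 to 1.24) held 1, and fbxa-67 had 1807 and 1780, a ratio of 1.02 (0.88 to 1.17). Sense reads on rrf-1 were 11 in the quadruple mutant and 47 in eri-1;dis-3.

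The NRDE-3 immunoprecipitates were compared with total small RNA labelled with the same mutant alleles to ask which fbxa siRNAs were found with this Argonaute. Vitellogenin sense reads were 1900.2 ppm in the IP control and 4.82 in total eri-1 RNA, and their part in the differences was not tested. The summed share in the IP control was 0.29 times that of total eri-1 RNA (0.26 to 0.31). In comparisons added after the data were seen, it was 0.19 times in dis-3, 0.49 in the pair labelled exos-1, 0.34 in exos-10 and 0.31 in the quadruple mutant. By antisense share the IP was thus lower in all 5 pairs. The control pair stayed lower per read on transcripts (0.11), by the reduced total (0.37) and per sense miRNA read (0.33). By the reduced total the direction turned in the other pairs, but no intervals were computed there. In the dis-3 pair the IP held 103 fbxa antisense reads for a reduced total of 145736, and total RNA 2443 for 3871966. Per read on transcripts the dis-3 and quadruple mutant pairs stayed lower, and those labelled exos-1 and exos-10 turned. In the pair labelled exos-1 the IP held 3306 fbxa antisense reads for a reduced total of 2819713, and total RNA 1585 for 6338532. In the control pair 24 of 28 tested members were lower and 1 higher, against 37.7% and 29.5% of 2170 genes, and the median log2 ratio was -2.13 for the members and -0.21 for all genes. Related families were low in the IP as well: 7 of 8 tested fbxb genes, 10 of 11 bath genes and 3 of 4 fbxc genes were lower, with medians of -2.38, -2.23 and -1.43. fbxa-106 had 48.2 ppm in the IP and 751 in total RNA, 15.6-fold lower (7.75 to 36.7), and fbxa-216 had 18.1 and 242, 13.4-fold lower (4.35 to 66.9). The member that rose was fbxa-69 (V, 15814232 to 15815971), with 21 reads in the IP (126 ppm) and 2 in total RNA (8.64 ppm), a ratio of 14.6 (3.58 to 129). In the dis-3 pair none of 22 tested members was higher and 20 were lower, against 19.4% and 40.0% of 1656 genes. In the pair labelled exos-1, 10 of 47 were higher and 17 lower, against 28.6% and 15.0% of 7443 genes. In exos-10, 2 of 34 were higher and 16 lower, against 24.8% and 14.6% of 7139 genes. In the quadruple mutant 1 of 23 was higher and 19 lower, against 39.7% and 23.3% of 3034 genes.

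By mean share over the 5 IP libraries the leading members were fbxa-218, fbxa-67, fbxa-42, fbxa-136, fbxa-66 and fbxa-210, of which fbxa-42 and fbxa-210 were minor in total RNA. fbxa-42 (III, 2259906 to 2261453) had 491 ppm in the IP of the quadruple mutant, 134 in that of dis-3, 67.0 in that labelled exos-1, 48.5 in exos-10 and 66.2 in the control, against 0 to 22.7 in the 8 total L3 libraries. All 5 IP values were above all total values, but fbxa-42 was named for its high mean in these IP libraries, so this is no independent result. Its values in the dis-3 and control IP rest on 6 and 11 reads. fbxa-210 had 48.2 to 169 ppm in the IP libraries, which overlapped with 34.5 to 90.7 in the total L3 libraries.

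Among the IP libraries, the sum was 0.54 times the control in dis-3 (0.43 to 0.66), 0.61 times in the library labelled exos-1 (0.56 to 0.66) and 0.45 times in exos-10 (0.41 to 0.49). These directions depend on the denominator. Per read of the reduced total they became 1.40, 2.32 and 1.56 times. The antisense protein-coding reads that form the main denominator numbered 44615, 1253905 and 1195237 in these libraries, against 166110 in the control. In the library labelled exos-1, 7 members were higher and 9 lower of 41 tested, against 23.4% and 9.07% of 7200 genes, and per read counted on any transcript 36 were higher and 1 lower. In exos-10, 6 were higher and 13 lower of 32, against 27.7% and 9.67% of 7081 genes, and on that other scale 23 and 1. In dis-3, whose IP library held 103 fbxa antisense reads in all, none was higher and 7 lower of 9, against 12.8% and 24.2% of 1418 genes, and per sense miRNA read 3 were higher and none lower. The median log2 ratio was 0.31 for the members and 0.59 for all genes in the library labelled exos-1, -0.41 and 0.70 in exos-10, and -1.80 and -0.43 in dis-3.

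The named members of the IP comparisons were small in number of reads. fbxa-77 had 65 reads in the library labelled exos-1 and 49 in exos-10, against 1 in the control, which are ratios of 8.61 (1.49 to 345) and 6.81 (1.17 to 274). fbxa-163 had 53 and 69 reads, against 1 in the control, which are ratios of 7.02 (1.21 to 283) and 9.59 (1.66 to 384). Both rises rest on that 1 read in the control. fbxa-120 fell to 7.18 ppm in the library labelled exos-1 and 9.20 in exos-10, against 247 in the control, 34.4-fold and 26.8-fold lower. fbxa-118 fell to 23.9 ppm in the library labelled exos-1, against 235 in the control, and fbxa-10 to 24.3 in exos-10, against 151. In dis-3, fbxa-136 and fbxa-24 had 1 read each, against 28 and 23 in the control. Vitellogenin sense reads were 16.7 ppm in the IP of dis-3, 321 in that labelled exos-1, 2613 in exos-10 and 1900.2 in the control, and their part in these differences was not tested.

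In the IP of the quadruple mutant the sum was 1.94 times that of the dis-3 IP (1.58 to 2.41), with 5 members higher and none lower of 9 tested, against 23.8% and 6.25% of 2496 genes. fbxa-136 had 263 ppm in the quadruple mutant and 22.4 in dis-3, a ratio of 11.7 (2.01 to 471), and fbxa-67 had 758 and 89.7, a ratio of 8.46 (3.24 to 31.4). These ratios rest on 1 and 4 reads in the dis-3 IP library. The median log2 ratio was 1.10 for the members and 0.75 for all genes.

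The RNAi libraries were compared with L4440 to see whether RNAi against a nucleolar or exosome-linked factor changed fbxa siRNAs in young adults. Per the paper, RNAi feeding began with embryos. Here the RNAi targets themselves took much of the denominator: fib-1, nol-56, mtr-4 and nrde-3 together held 29.3% of the antisense protein-coding reads in fib-1 RNAi, 30.3% in nol-56 RNAi and 37.8% in mtr-4 RNAi, against 0.17% in L4440. The sum was 0.83 times that of L4440 in fib-1 RNAi (0.81 to 0.85), 1.12 times in nol-56 RNAi (1.10 to 1.15) and 0.81 times in mtr-4 RNAi (0.79 to 0.82). With those 4 genes left out of the denominator, a choice made after the data were seen, it was 1.17, 1.61 and 1.30 times, so the directions for fib-1 and mtr-4 RNAi turned. The direction for nol-56 RNAi turned under the other denominators, at 0.49 times per read on transcripts, 0.46 by the reduced total and 0.27 per sense miRNA read. The libraries also differed in nrde-3 sense reads, at 192 ppm in fib-1 RNAi, 160.4 in nol-56 RNAi and 179 in mtr-4 RNAi, against 1109 in L4440, and in vitellogenin sense reads, at 43823, 36838 and 60259 ppm in the same order, against 72123 in L4440. Their part in the differences was not tested.

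Of the members tested, 6 were higher and 9 lower of 55 in fib-1 RNAi, against 6.05% and 18.6% of 7454 genes, and per sense miRNA read 2 and 33. In nol-56 RNAi 6 were higher and 17 lower of 52, against 8.15% and 53.3% of 7366 genes, and per sense miRNA read none and 47. In mtr-4 RNAi 5 were higher and 21 lower of 56, against 10.7% and 56.1% of 8046 genes. Without the 4 genes in the denominator the splits were 9 and 5 in fib-1 RNAi (12.0% and 6.68% of all genes), 12 and 12 in nol-56 RNAi (11.5% and 33.3%) and 11 and 14 in mtr-4 RNAi (16.7% and 27.0%). Relative to the median of all genes, which no denominator changes, the median log2 ratio of the members was higher by 0.04 in fib-1 RNAi, 0.87 in nol-56 RNAi and 0.46 in mtr-4 RNAi.

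fbxa-224 (II, 7546780 to 7548144) and fbxa-40 had the highest antisense shares among the members called higher in nol-56 and mtr-4 RNAi. fbxa-224 had 323 ppm in fib-1 RNAi, 658 in nol-56 RNAi and 545 in mtr-4 RNAi, against 117 in L4440, which are ratios of 2.75 (2.34 to 3.24), 5.61 (4.81 to 6.56) and 4.64 (4.02 to 5.38). fbxa-40 (X, 1940632 to 1942199) had 230.1, 436 and 410.3 ppm in the same order, against 148 in L4440, and was called in nol-56 and mtr-4 RNAi. Its log2 ratios were 0.64, 1.56 and 1.47 in that order. Per sense miRNA read, log2 ratios move by -0.78, -2.08 and -0.39, so its rise turned in fib-1 and nol-56 RNAi. In the total L3 libraries the values of both genes overlapped between the eri-1 genotypes, at 0 to 18.7 ppm with eri-1(mg366) and 6.19 to 169 with eri-1 intact for fbxa-224, and at 0 to 22.6 and 4.13 to 173 for fbxa-40. fbxa-40 and fbxa-41, which has the same exonic length and lies on the same strand of X, share a name in Ensembl. fbxa-41 had at most 1 read in any library, so the division of reads between them is uncertain.

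Other members that rose were low in L4440. fbxa-171 had 14.2 ppm in fib-1 RNAi, 16.9 in nol-56 RNAi and 28.1 in mtr-4 RNAi, against 2.73 in L4440, and was called in fib-1 and mtr-4 RNAi. fbxa-99 had 25.9, 43.7 and 70.8, against 7.64, and was called in all 3, and fbxa-131 was 7.01-fold higher in fib-1 RNAi (2.70 to 23.1). Among those that fell, fbxa-63 had 9.87 ppm in fib-1 RNAi, 5.34 in nol-56 RNAi and 12.3 in mtr-4 RNAi, against 56.2 in L4440, and fbxa-208, which overlaps fbxa-78 on the opposite strand, had 6.79, 6.24 and 4.23, against 31.1. fbxa-211 and fbxa-65 were at 1 read each in nol-56 RNAi, against 30 and 23 in L4440. The 3 comparisons share the L4440 library.

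Sense reads on the family were fewer than antisense reads in the total L3 libraries and are given as values only. The summed sense share was 2603 ppm of sense protein-coding reads in dis-3, 1446 in exos-1 and 1355 in N2. It was 1582 in eri-1;dis-3, 1325 in eri-1;exos-1, 1741 in eri-1;exos-10, 1877 in the quadruple mutant and 1104 in eri-1. Each exosome library was above its control in sense share, although for exos-1 over N2 the interval of the ratio (0.99 to 1.15) held 1, and the antisense share of most was below it. In the IP libraries it was 446 to 789 ppm in the mutants and 431 in the control, and in young adults 1142, 980 and 1002 in fib-1, nol-56 and mtr-4 RNAi, against 621 in L4440.

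The member with the highest mean sense share over all libraries was fbxa-192 (V, 17640672 to 17650527). It had 333 ppm in dis-3, 300.2 in exos-1 and 109 in N2, and 261 in eri-1;dis-3, 288 in eri-1;exos-1, 185 in eri-1;exos-10 and 111 in eri-1, so each exosome library was above its control. Its antisense share ran the other way, at 39.2 ppm in dis-3, 29.4 in exos-1 and 119 in N2. fbxa-118 had 256 ppm of sense reads in dis-3, 64.6 in exos-1 and 107 in N2, and fbxa-60 (III, 944733 to 946300) had 244, 113 and 18.0. fbxa-52, the leading antisense member per kilobase, had a mean sense share of only 11.5 ppm.

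Other genes of the F-box and ubiquitin ligase machinery were counted in the same way. The files hold 104 fbxb and 48 fbxc genes, from other F-box families, 36 bath genes, whose BATH and BTB proteins serve other cullin ligases, 22 genes for CUL-1, RBX-1 and SKR proteins, and 6 conserved F-box genes (lin-23, sel-10, fsn-1, mec-15, dre-1 and prom-1). In eri-1;exos-1 over eri-1, where 39.3% of all genes were higher and 15.6% lower, 2 fbxb genes were higher and 3 lower of 12 tested, 2 fbxc genes higher and 2 lower of 6, and 2 bath genes higher and 4 lower of 16. None of 3 genes for CUL-1, RBX-1 and SKR proteins was called, and the 1 conserved F-box gene tested was higher. The median log2 ratio was -1.58 for the fbxa members, 0.27 for fbxb, -0.14 for fbxc, -0.61 for bath and 0.72 for all genes, so these 3 families were also below all genes.

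In eri-1;exos-10 over eri-1, where 34.1% of all genes were higher and 18.8% lower, no fbxb gene was higher and 4 were lower of 8, no fbxc gene was higher and 2 were lower of 4, and 2 bath genes were higher and 5 lower of 12. Here the median log2 ratio was -1.50 for the fbxa members, -1.03 for fbxb, -0.74 for fbxc, -0.93 for bath and 0.46 for all genes. A median below that of all genes was thus shared by these families. In nol-56 RNAi over L4440, where 8.15% of all genes were higher and 53.3% lower, 2 fbxb genes were higher and 26 lower of 37. Of 17 fbxc genes 1 was higher and 10 were lower, and of 29 bath genes 2 were higher and 14 lower. The median there was -0.25 for the fbxa members, -2.18 for fbxb, -1.80 for fbxc, -0.95 for bath and -1.12 for all genes. The bath median was thus also above that of all genes. Relative to all genes in mtr-4 RNAi, the median was 0.46 for fbxa, 0.50 for fbxc, 0.18 for bath and -0.09 for fbxb.

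**Figure D5:**
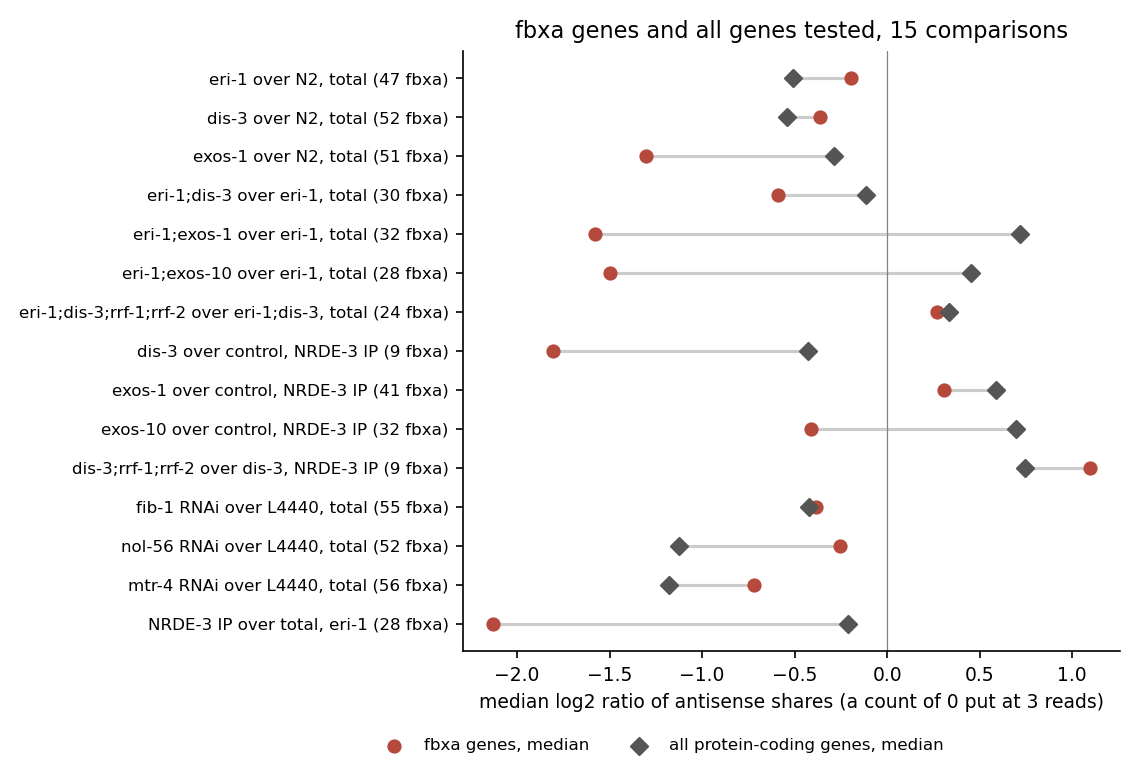
Median log2 ratio of antisense shares in the 15 comparisons for the fbxa members tested (circles, number in brackets) and for all protein-coding genes tested (diamonds), with a count of 0 put at 3 reads. The distance between the symbols does not depend on the denominator, and it is widest in eri-1;exos-1 over eri-1, where the members are at -1.58 and all genes at 0.72.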

How the data were processed

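The authors deposited counts of reads per transcript, sense and antisense, without normalization. Per the paper, adaptor-trimmed reads with lengths between 18 and 30 nt were aligned by Bowtie2 to transcripts of WS243 at default settings, whose version is not given in the sources used here, and counted with custom Perl scripts. Default settings place a read that fits several copies or isoforms at 1 of them. A blank in a count column, of which a library had 3 at most, was taken as 0. Gene IDs were named through Ensembl release 115 of WBcel235, from which the coordinates come. RefSeq gave the same name to 167 of the 170 members and its name fbxa-40 was used where Ensembl gives fbxa-41 to 2 genes.

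Shares, ratios, exact conditional intervals, Wilson intervals and binomial tests were computed in Python 3.11.15 with scipy 1.17.1, pandas 2.3.3 and numpy 2.4.6, and figures were drawn with matplotlib 3.10.9. Exonic length is the number of bases covered by a gene's exons. The functions were tested on simulated counts. Members named were the 12 with the highest mean antisense share in the total L3 libraries, 6 each in the IP and young adult libraries, 3 by sense share, and up to 2 called members with the largest and 2 with the smallest ratio in each comparison. Others were named after their values were seen. The members, lists and tests were chosen with earlier results of these data known. Alternatives were other denominators, read minimums, a fold of 4, leaving out the leading member and taking 1 isoform per gene. No sequences were used here. The libraries held 5094172 to 17155933 reads on transcripts.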

Additional observations from a re-analysis of the deposited data

Results flagged for a closer look

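The summed antisense share of the fbxa genes moved in opposite directions with dis-3(ust56) in the 2 backgrounds: it was 1.23 times that of N2 in dis-3 and 0.80 times that of eri-1 in eri-1;dis-3. The difference between the backgrounds was not tested, since each condition has 1 library, and without fbxa-52, fbxa-53 and fbxa-61 the ratio over N2 was 0.88. The opposite directions do not hold for every denominator: per sense miRNA read the ratios were 0.62 over N2 and 0.53 over eri-1. By the reduced total they remained opposite, at 1.03 (1.002 to 1.054) and 0.46, with the first close to 1.

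The log2 ratio of fbxa-136 was 1.11 in exos-1 over N2 and -3.26 in eri-1;exos-1 over eri-1, and that of fbxa-66 was 3.65 and -1.23 in the same comparisons. Each was called in opposite directions by its interval, and the difference itself was not tested. The N2 library held 7 reads on fbxa-66.

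Antisense reads also lay on the non-coding isoform of fbxa-218, which the rule leaves out. They numbered 1884 in mtr-4 RNAi and 1632 in L4440, and 211 in N2.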

How the results depend on the processing

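No paired analysis was possible because each condition has 1 library. Of 105 alternative values of the summed ratios, 89 kept their direction and their side of the threshold. Per sense miRNA read, dis-3 over N2 was 0.62, nol-56 RNAi over L4440 0.27, and the IP ratios over the control were 11.7 in dis-3, 23.4 in the library labelled exos-1 and 20.7 in exos-10, which turned each direction. Per read of the reduced total, the IP ratios were 1.40, 2.32 and 1.56 in the same order and nol-56 RNAi was 0.46. Per counted read, the IP library labelled exos-1 was 5.198, that of exos-10 3.32 and nol-56 RNAi 0.49. Without the RNAi targets and nrde-3 in the denominator, chosen after seeing the data, fib-1 RNAi was 1.17 and mtr-4 RNAi 1.30. Without fbxa-52, fbxa-53 and fbxa-61, chosen likewise, dis-3 over N2 was 0.88 and eri-1 over N2 0.97, no longer past the threshold. Leaving out the leading member or taking 1 isoform per gene turned no ratio.

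Over the 15 comparisons, 70 calls were higher and 210 lower. Higher calls numbered 113 per counted read, 114 per sense miRNA read, 41 with a minimum of 50 reads, 128 with a minimum of 1 and 45 at a fold of 4, and lower calls 136 with a minimum of 50 reads and 120 at a fold of 4. Of 210 counts for individual comparisons, 82 moved by over 1.5 times. Depth limits the dis-3 IP library most, where 3 reads stand for 67.2 ppm.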
